A study of Mus musculus with 2 samples.

Results

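The genes described here are 8 that bone morphogenetic protein (BMP) signalling is known to switch on: Id1, Id2, Id3 and Id4, the inhibitory Smad genes Smad6 and Smad7, the pseudoreceptor gene Bambi and the receptor-regulated Smad gene Smad9. They were chosen by name, with earlier results of these data known, and all 8 were found among 49585 gene rows. RNA sequencing was done on cultured Nestin+ cells from bone marrow and from heart of Nestin-GFP transgenic C57BL/6 mice aged 7 days, both at passage 10 and both labelled as mesenchymal stem cells. The heart cells grew in DMEM/F12 and IMDM with 20 ng/ml EGF, 20 ng/ml bFGF, 4 ng/ml cardiotrophin-1, N2, B27 and beta-mercaptoethanol, while the bone marrow cells grew in a different medium taken from earlier work. Tissue and medium cannot be told apart. Each tissue gave 1 library, so no value below has a replicate check, no test between the tissues is possible, and all differences are between these 2 libraries.

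BMP ligands bind pairs of type I and type II receptors, which phosphorylate Smad1, Smad5 and Smad9. These join Smad4, enter the nucleus and bind regulatory DNA of target genes. Id proteins, the best known targets, have a helix-loop-helix domain without a DNA-binding region, and they hold E proteins away from their partners in differentiation. Smad6, Smad7 and Bambi are induced by the same signal and restrain it, Smad6 mainly in the BMP arm and Smad7 in both the BMP and the TGF-beta arms. In stromal cells of bone marrow and heart this pathway is known for its part in bone formation and in valve and septum development.

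Smad6, Smad7 and Id1 were lower in the heart library, and Id2 leaned the other way. Smad6 stood 10.5-fold, Id1 4.34-fold and Smad7 3.60-fold higher in bone marrow. Id3 was the most abundant member in both libraries and was 1.51-fold higher in bone marrow. Id2 was 1.54-fold higher in heart. Id4 and Smad9 were low and went toward bone marrow, while Bambi was low and nearly even.

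The read depth recovered from the deposited values was 53999963 reads for bone marrow and 64872683 for heart. Levels are in RPKM, a unit that corrects reads for gene length and library size. Intervals are exact 95% counting intervals. No molecular identifiers are named, so reads may repeat 1 molecule, and the intervals cover counting error only and say nothing of the spread between cultures. All 10 listed mesenchymal stromal genes reached 1 RPKM in at least 1 library, and their sums were 3997.1 RPKM for bone marrow and 4867.0 for heart. Of the 9 that reached 5 RPKM, heart was at least 2-fold higher for 4, bone marrow for 0, and 5 were closer than that. The stromal markers Thy1 and Eng stood at only 0.0603 and 0.576 RPKM in bone marrow, against 16.7 and 33.9 in heart. Nt5e, which did not reach 5 RPKM, went the other way at 1.59 RPKM in bone marrow against 0.225 in heart. Cd44 (20.7 and 11.5 RPKM) and Vim (962.2 and 521.2) also leaned toward bone marrow, by less than 2-fold. The transgene is a reporter driven by Nestin regulatory DNA, and whether animals were pooled is not given in the sources used here. Nes itself stood at 1.20 RPKM in bone marrow against 8.74 in heart. In such bulk RNA a smaller share of expressing cells and less RNA per cell cannot be told apart.

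The DNA just before the starts of Id4, Smad6 and Smad9 is shown because BMP-activated Smads are known to bind near such genes. The promoter sequences are from RefSeq (GRCm38.p6), whose table matched 5 of the 8 members, namely Id2, Id3, Id4, Smad6 and Smad9. The windows of Id2 and Id3 overlap annotated exons and are not shown. The 3 members left were not selected by ratio, though they had the largest ratios toward bone marrow. Each run reads 5′ to 3′ on the strand of the gene, from 250 bases before the RefSeq start. For Id4 that start is not the start of the measured row: the window ends at 48261115 and the row begins at 48261427. Capitals mark matches on either strand to 3 motifs known to bind Smad proteins: the palindrome GTCTAGAC, and the GC-rich motifs GGCGCC and GGAGCC, which on the other strand reads GGCTCC. The motifs were chosen after the sequences had been seen.
Smad6, chr9:64022056-64022309, minus strand: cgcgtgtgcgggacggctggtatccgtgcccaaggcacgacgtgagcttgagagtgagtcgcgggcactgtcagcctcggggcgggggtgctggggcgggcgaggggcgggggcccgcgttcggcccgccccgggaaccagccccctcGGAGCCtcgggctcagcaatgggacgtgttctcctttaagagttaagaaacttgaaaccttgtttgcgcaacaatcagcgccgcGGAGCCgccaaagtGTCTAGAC
Smad9, chr3:54755332-54755581, plus strand: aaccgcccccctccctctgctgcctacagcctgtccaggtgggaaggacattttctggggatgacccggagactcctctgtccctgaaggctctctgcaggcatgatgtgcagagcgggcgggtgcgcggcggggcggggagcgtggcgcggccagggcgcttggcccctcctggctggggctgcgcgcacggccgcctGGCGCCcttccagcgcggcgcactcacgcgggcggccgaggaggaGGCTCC
Id4, chr13:48260866-48261115, plus strand: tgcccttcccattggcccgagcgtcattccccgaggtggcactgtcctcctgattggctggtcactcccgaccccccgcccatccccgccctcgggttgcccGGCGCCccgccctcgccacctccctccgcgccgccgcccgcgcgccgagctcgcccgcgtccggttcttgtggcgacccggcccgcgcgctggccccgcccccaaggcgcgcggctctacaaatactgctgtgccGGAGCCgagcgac

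The Smad6 run goes 4 bases past the start so that the palindrome GTCTAGAC, which straddles the start, is whole. Of 32851 promoter windows of 300 bases in the RefSeq table, 70 (0.213%) hold that palindrome. The other 4 members in the table do not hold it in this window. GGCGCC is in 11.9% of all windows and in those of Id2, Id4 and Smad9. GGAGCC is in 30.8% of all windows and in those of all 5 members in the table. These matches describe letters in a window, and nothing on factor binding was measured.

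Id1 was at 16.3 RPKM in bone marrow (1023 reads; 95% interval 15.4 to 17.4 RPKM). In heart it was at 3.76 RPKM (283 reads; 3.34 to 4.23). Id1 lies on chromosome 2 from 152736251 to 152737410 on the plus strand, and its protein binds E proteins and keeps progenitor cells from differentiating. The heart to bone marrow ratio of Id1 was 0.230 with a counting interval of 0.201 to 0.263. On the log2 scale with 1 RPKM added to both values, used for every log2 ratio below, this is -1.86. Of the 7659 genes that reached 5 RPKM in at least 1 library, 257 had a lower log2 ratio than Id1.

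Id2 was the one Id gene at a higher level in heart. Its row, chromosome 12 from 25093801 to 25096092 on the minus strand, stood at 15.6 RPKM in bone marrow from 1068 reads. In heart it stood at 24.03 RPKM from 1980 reads. The Id2 protein also binds the retinoblastoma protein. The ratio of Id2 was 1.54 with an interval of 1.43 to 1.66, and the log2 ratio was 0.59, short of 2-fold. In bone marrow Id1 and Id2 were at nearly the same level, a ratio of Id2 to Id1 of 0.954, whereas in heart Id2 was 6.39 times as abundant as Id1.

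Id3 led both libraries, at 71.8 RPKM in bone marrow from 6944 reads and 47.5 RPKM in heart from 5522 reads. It lay above 94.7% of the genes that reached 1 RPKM in bone marrow and above 92.5% in heart. Id3, on chromosome 4 from 136143497 to 136145755 on the plus strand, is often regulated together with Id1. The ratio of Id3 was 0.662 (0.639 to 0.686) and its log2 ratio -0.59, so the difference of Id1 was the larger of the pair. Id3 was 4.40 times Id1 in bone marrow and 12.6 times Id1 in heart.

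Id4, the Id gene best known from neural and bone-forming cells, had 49 reads in bone marrow, a level of 0.547 RPKM (0.404 to 0.723). It had 0 reads in heart. The 95% counting interval of the heart to bone marrow ratio, which covers the counting error of both libraries only, had an upper limit of 0.0651. At that limit Id4 was 15.4-fold lower in the heart library. The Id4 row spans chromosome 13 from 48261427 to 48264036 on the plus strand. The only row that overlaps any member is A330033J07Rik, on the strand opposite to Id4, and it stood at 0.00831 RPKM in bone marrow against 0.00346 in heart.

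Summed over the 4 genes, Id RNA was 104.3 RPKM in bone marrow against 75.3 in heart. Id3 made up 68.9% of the bone marrow sum and 63.1% of the heart sum. The share of Id1 was 15.7% in bone marrow and 4.99% in heart, and that of Id2 was 14.9% and 31.9%. The smaller Id sum of heart came with a different order of paralogues, Id3, Id2, Id1 in heart against Id3, Id1, Id2 in bone marrow, where the counting intervals of Id1 and Id2 overlapped.

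**Figure D1:**
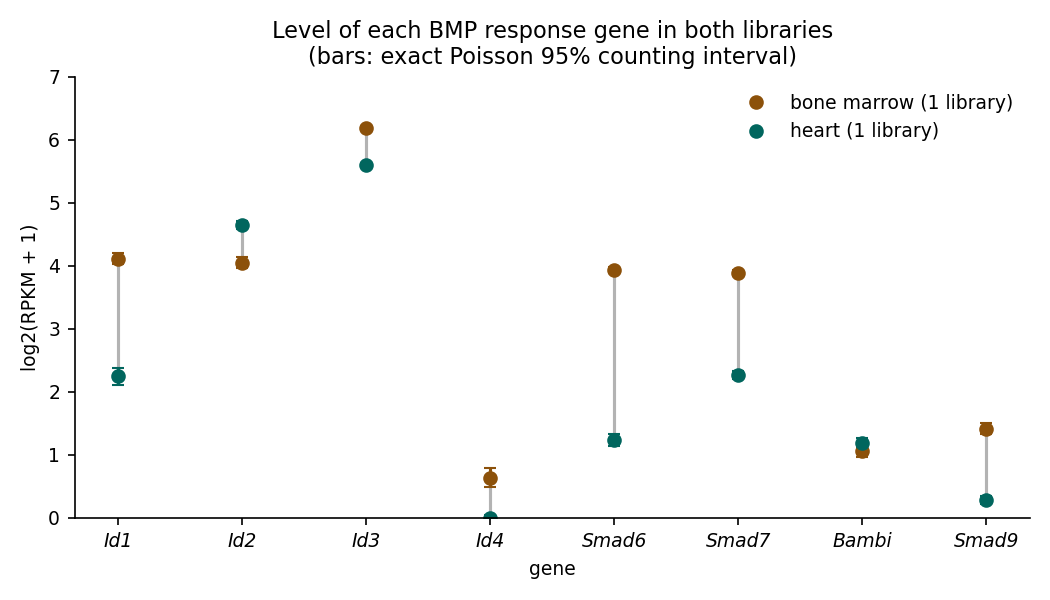
Level of each of the 8 genes on the y axis, as log2(RPKM + 1), in the bone marrow library (brown) and the heart library (green); bars are exact Poisson 95% counting intervals, often smaller than the point. Bone marrow is above heart for 6 genes, and heart is above bone marrow for Id2 and Bambi.

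Smad6 had the largest difference among the members with reads in both libraries. It stood at 14.3 RPKM in bone marrow from 2470 reads and at 1.36 RPKM in heart from 282 reads. The Smad6 protein competes with Smad4 for activated Smad1 and blocks type I BMP receptors. The gene lies on chromosome 9 from 63953076 to 64022059 on the minus strand. The heart to bone marrow ratio was 0.0950 with an interval of 0.0837 to 0.108. Its log2 ratio of -2.70 was undercut by 120 of the 7659 genes.

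Smad7, whose protein brings ubiquitin ligases such as Smurf2 to type I receptors, stood at 13.7 RPKM in bone marrow from 3356 reads. In heart it stood at 3.82 RPKM from 1119 reads. It lies on chromosome 18 from 75367529 to 75395935 on the plus strand. The ratio of Smad7 was 0.278 (0.259 to 0.297), a log2 ratio of -1.61, and 337 of the 7659 genes had a lower one. Smad6 and Smad7 were nearly level in bone marrow, at a ratio of 1.04, but Smad6 was at 0.356 times Smad7 in heart.

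Bambi encodes a receptor-like protein without a kinase domain that takes the place of a type I receptor. It stood at 1.08 RPKM in bone marrow from 295 reads and at 1.27 RPKM in heart from 415 reads. The row is on chromosome 18 from 3507957 to 3516404 on the plus strand. Its ratio was 1.17 (1.01 to 1.36), or 0.12 as a log2 ratio. Bambi was therefore the one feedback inhibitor among the members that was not lower in heart.

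Smad9, the least abundant of the BMP-activated Smads here, carries the signal and is also raised by it. It lies on chromosome 3 from 54755582 to 54801257 on the plus strand. It stood at 1.67 RPKM in bone marrow from 484 reads and at 0.212 RPKM in heart from 74 reads. The ratio of Smad9 was 0.127 with an interval of 0.0983 to 0.163. On the log2 scale this was -1.14, where the added 1 RPKM hides most of a 7.86-fold difference.

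**Figure D2:**
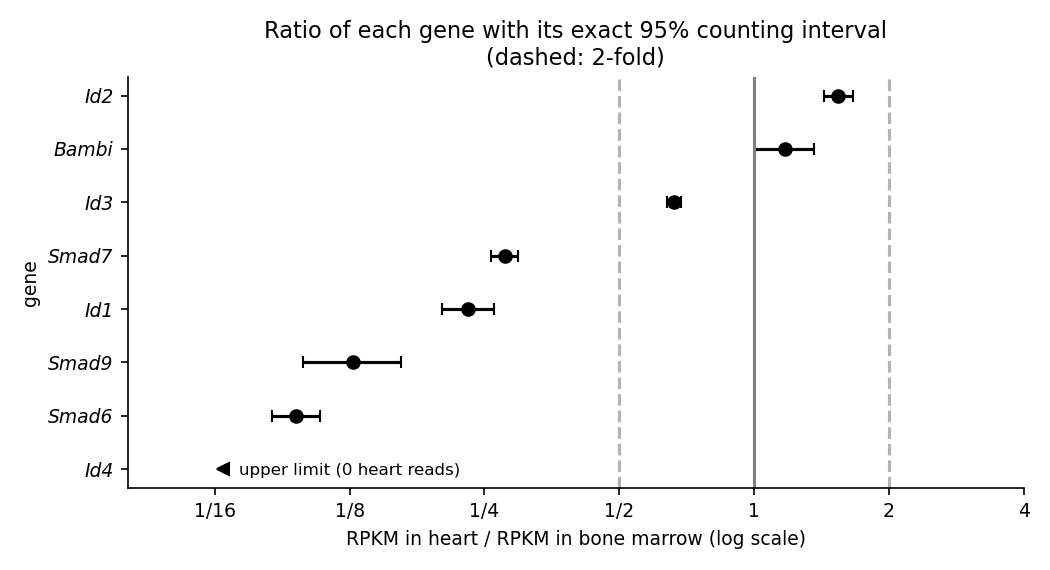
Ratio of RPKM in heart to RPKM in bone marrow on a log axis for each gene, with its exact 95% counting interval; dashed lines mark 2-fold, and the triangle is the upper limit for Id4, which had 0 heart reads. Smad6, Smad9, Id1, Smad7 and the limit of Id4 lie left of the lower 2-fold line, and Id3, Bambi and Id2 lie between the lines.

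A gene was counted as higher in a library when it differed by at least 1 log2 unit in that direction and reached 5 RPKM there. Of the 8 members, 5 reached that floor. Of these, 3 (Id1, Smad6 and Smad7) were higher in bone marrow, 0 were higher in heart and 2 (Id2 and Id3) were neither. Across all 7659 genes at the floor, 9.51% were higher in bone marrow and 7.56% in heart, which are 728 and 579 genes. That balance turned with the libraries scaled by the median ratio, to 583 genes for bone marrow and 704 for heart, while the members' counts stayed at 3 and 0. With the floor at 1 RPKM, 7 members were counted, and 4, now with Smad9, were higher in bone marrow and 0 in heart, where 9.26% and 7.77% of 11358 genes were. The median log2 ratio of the 7 members at or above 1 RPKM was -1.14, and that of all genes at that level was -0.11. The members' median was the value of Smad9, which was -2.50 with 0.1 RPKM added and -0.36 with 5 RPKM added. The members' share toward bone marrow was thus above that of all genes at both floors. Because the members were chosen with earlier results of these data known, this is a description and not an independent comparison.

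**Figure D3:**
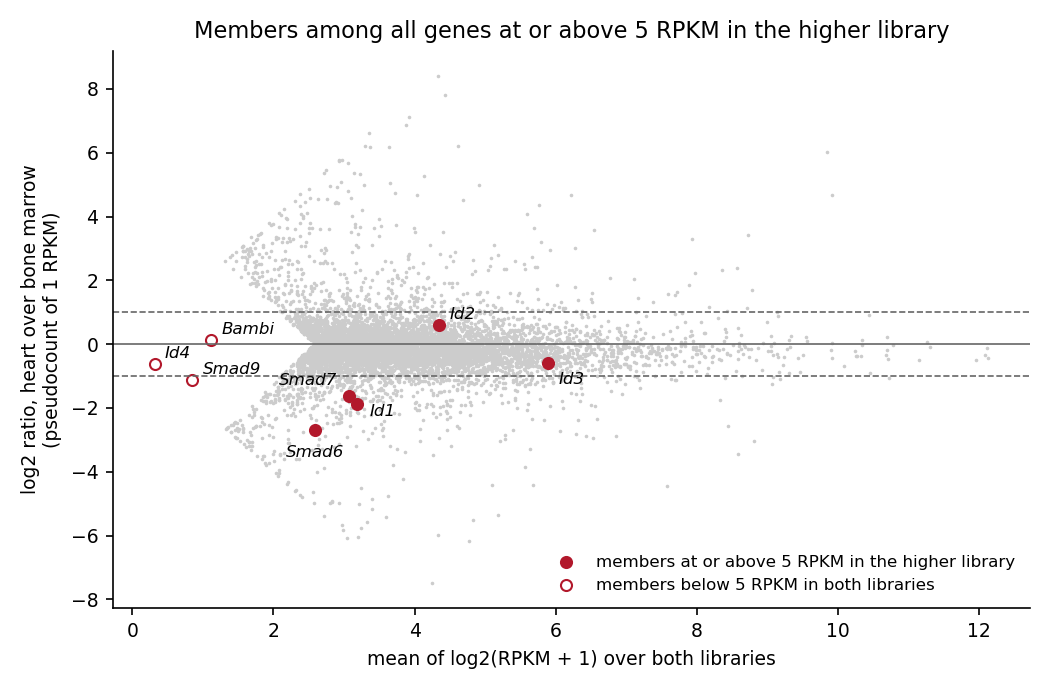
Log2 ratio of heart over bone marrow (y axis, 1 RPKM added) against the mean level over both libraries (x axis, log2(RPKM + 1)) for the 7659 genes that reached 5 RPKM in at least 1 library (grey) and the members (red; open where below 5 RPKM in both libraries). Smad6, Id1 and Smad7 lie below the lower dashed 2-fold line at mid levels, Id2 and Id3 lie between the lines, and Smad9 lies just below the lower line at a low level.

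The 5 receptor-regulated and common Smad genes other than Smad9 each differed by less than 2-fold between the libraries. Smad1 stood at 4.31 RPKM in bone marrow against 3.97 in heart, and Smad5 at 11.6 and 15.2. Smad4, the partner shared by both arms, stood at 25.7 and 22.9 RPKM. Smad2 and Smad3, which serve the TGF-beta arm, had log2 ratios of -0.18 and -0.27. Of these 5 receptor-regulated and common Smad genes, 4 reached the floor and 0 were 2-fold apart. The median was -0.16 over all 5, which reached 1 RPKM. Summed RPKM of Smad6 and Smad7 was 1.76 times that of Smad1 and Smad5 in bone marrow and 0.270 times in heart. The inhibitory pair was thus above the signalling pair in 1 library and below it in the other.

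**Figure D4:**
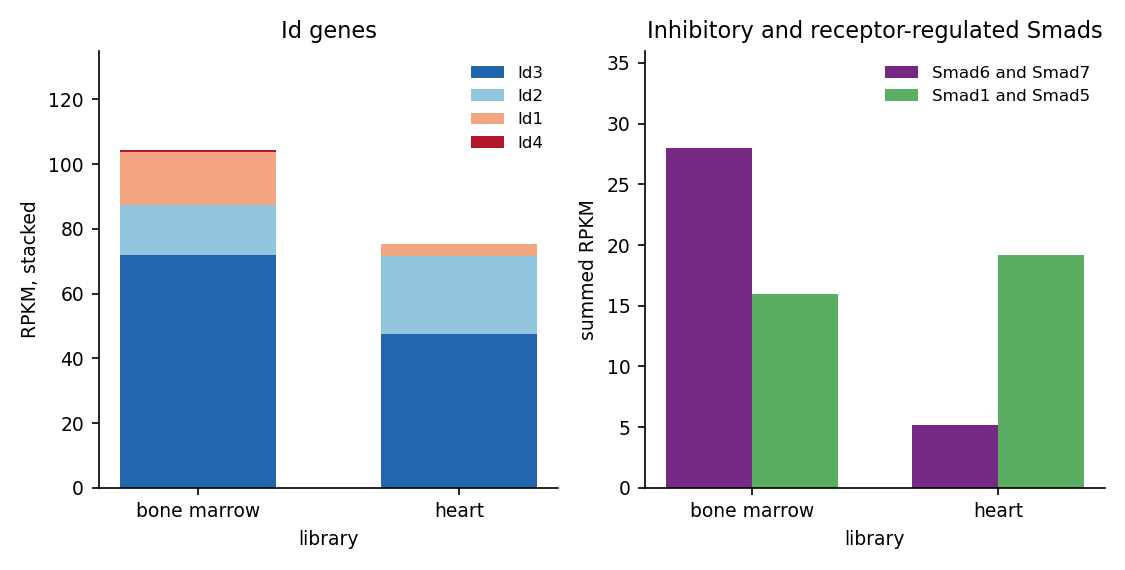
Left, RPKM of the 4 Id genes stacked for each library; right, summed RPKM of Smad6 and Smad7 (purple) beside that of Smad1 and Smad5 (green). The Id stack is 104.3 RPKM in bone marrow against 75.3 in heart, and the purple bar goes from 28.02 to 5.17 RPKM while the green bar goes from 15.9 to 19.2.

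Co-receptor genes were higher in heart, and the signalling receptor genes at the floor were not 2-fold apart by the rule above, Bmpr1a only narrowly. Of 12 receptor and co-receptor genes, 8 reached the floor. Heart was higher for 4, bone marrow for 0, and 4 were not 2-fold apart. The median log2 ratio was 0.99 over the 9 genes that reached 1 RPKM. The type I receptor gene Bmpr1a stood at 22.9 RPKM in bone marrow against 46.5 in heart. Its ratio of 2.035 fell just short of the 2-fold rule only through the added 1 RPKM. With 0.1 RPKM added, or with any of the 4 scalings, the count for heart was 5. The type II receptor gene Bmpr2 stood at 12.9 and 22.4 RPKM. Acvr2a, another type II receptor gene, stood at 2.95 and 5.71 RPKM, and the type I receptor gene Acvr1 went the other way at 17.1 and 11.6 RPKM. The 4 genes higher in heart by the rule above were all co-receptor genes. Eng, which encodes endoglin, stood at 0.576 RPKM in bone marrow against 33.9 in heart. Rgma and Rgmb, which encode membrane-anchored BMP co-receptors, had log2 ratios of 3.07 and 2.42, and the betaglycan gene Tgfbr3 had 1.52.

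Ligand genes were mostly low, and 2 of 13 reached the floor, 1 in each direction. Bmp4 stood at 73.0 RPKM in bone marrow against 0.132 in heart. Gdf6, another ligand of the family, stood at 0.278 RPKM in bone marrow from 53 reads and 12.2 in heart from 2801 reads. Summed over the list, ligand RNA was 75.2 RPKM in bone marrow against 14.0 in heart.

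Of 16 secreted antagonist and modulator genes, 7 reached the floor. Bone marrow was higher for 3, heart for 2, and 2 were not 2-fold apart, and the median was -0.70 over the 10 genes that reached 1 RPKM. Grem1, which encodes the antagonist gremlin, stood at 17.3 RPKM in bone marrow against 168 in heart. Bmper, which encodes a BMP-binding modulator of endothelial and cartilage development, stood at 5.26 and 70.0 RPKM. The activin and BMP binding protein genes Fst and Fstl3 went toward bone marrow, with log2 ratios of -4.76 and -2.37. The antagonists were not of 1 direction, and the library with lower Smad6, Smad7 and Id1 had more Grem1 and Bmper RNA and less Bmp4 and Fst RNA.

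Most of 13 intracellular regulators of Smads were even. Of 12 at the floor, bone marrow was higher for 2, heart for 0, and 10 were not 2-fold apart. The median was -0.35 over the 13 genes, which all reached 1 RPKM. Smurf2, the ubiquitin ligase that acts with Smad7, stood at 37.5 RPKM in bone marrow against 15.9 in heart. Tob1, which encodes a protein that dampens BMP signalling in osteoblasts, stood at 21.3 and 6.10 RPKM. Tob2 and the phosphatase gene Ctdspl had log2 ratios of -0.44 and -0.47.

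Other transcription factor genes known to be induced by BMPs also leaned toward bone marrow. Of 10, 5 reached the floor. Bone marrow was higher for 4, heart for 0, and the cartilage factor gene Sox9 was even at 7.12 and 7.13 RPKM. The median was -1.12 over the 6 that reached 1 RPKM. Sp7, the osteoblast factor osterix, had 6529 bone marrow reads and 2 heart reads, a ratio of heart to bone marrow of 0.000255 (3.09e-05 to 0.000922). The homeobox genes Msx1 and Dlx5 and the osteoblast factor gene Runx2 had log2 ratios of -1.20, -1.03 and -1.02. The last 2 of these lie at the threshold. The count was 2 with the libraries scaled by the median ratio, the upper quartile or a trimmed mean, and 1 with 5 RPKM added.

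The E proteins, which Id proteins bind, differed among themselves. Tcf3 stood at 33.4 RPKM in bone marrow against 17.8 in heart, Tcf4 at 9.57 and 27.1, and Tcf12 at 11.8 and 15.6. By the 2-fold rule 1 of 3, Tcf4, was higher in heart, and the median log2 ratio was 0.37. Their sum was 54.8 RPKM in bone marrow against 60.6 in heart. Id RNA was 1.90 times E protein RNA in bone marrow and 1.24 times in heart.

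**Figure D5:**
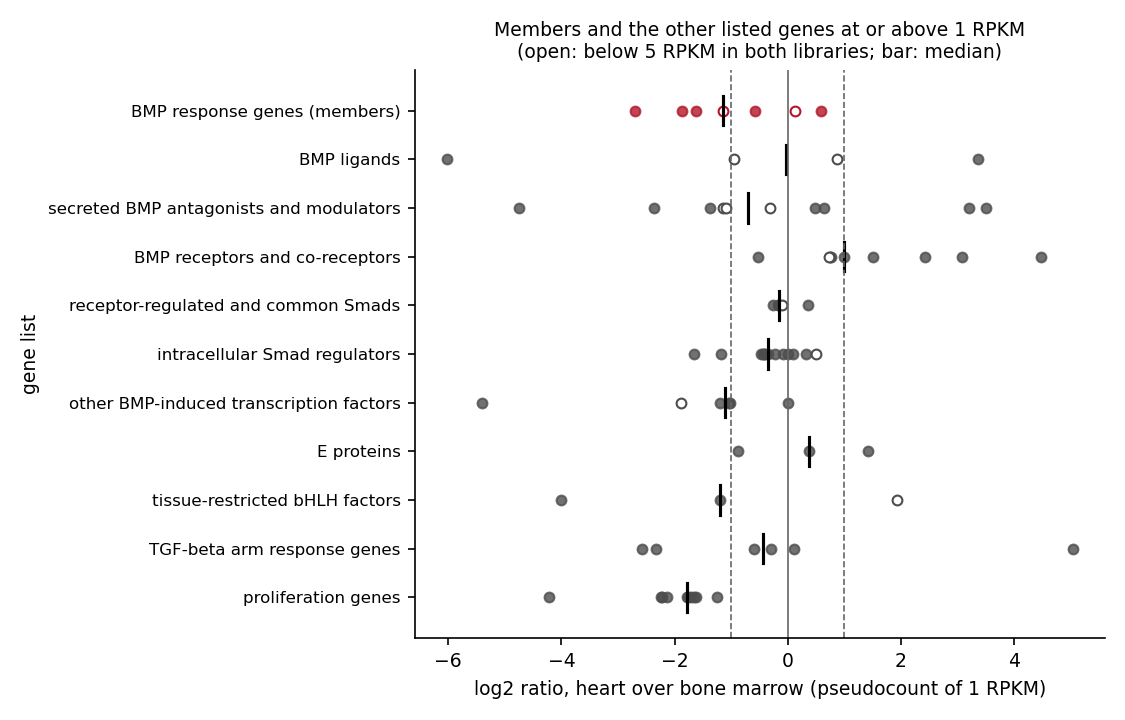
Log2 ratio of heart over bone marrow (x axis, 1 RPKM added) for each gene that reached 1 RPKM among the 8 members (red) and in 10 lists of related genes (grey); open points are below 5 RPKM in both libraries, bars are medians and dashed lines mark 2-fold. The members' median is -1.14 (the value of Smad9), that of receptors and co-receptors 0.99, and the receptor-regulated and common Smads lie between the dashed lines.

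Proliferation genes were higher in the same library as most members. All 10 listed, such as Rrm2 with 60.9 RPKM in bone marrow against 2.33 in heart, were higher in bone marrow, with a median of -1.78. Mcm3, Mcm5 and Mcm6, of the replicative helicase, had log2 ratios of -2.25, -2.13 and -2.21, and the part of proliferation in the members' values was not tested. Of 6 osteoblast markers, which share Sp7 and Runx2 with the list above, 4 reached the floor and all 4 were higher in bone marrow, while Dmp1 was below the floor at 0.0536 and 4.50 RPKM. The list summed to 95.3 RPKM in bone marrow against 8.78 in heart. Their part was not tested.

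Endothelial cells are a known source of Id1 and Smad6. Of 8 endothelial markers, 7 were below 1 RPKM in both libraries and Tie1 and Cldn5 were at 0 in both. The list summed to 0.544 RPKM in bone marrow against 7.01 in heart, nearly all from Erg at 6.06. All 8 cardiomyocyte and all 6 glial and neural markers were below 1 RPKM in both libraries (sums of 0.875 and 0.785, and of 0.760 and 0.917), as were 5 of 8 haematopoietic markers, whose sums were 5.30 and 9.39 RPKM. Laptm5 and Hba-a1 were at 0 in both libraries. Pericyte and smooth muscle markers summed to 899 RPKM in bone marrow against 64.2 in heart, mostly from Acta2, with Cspg4 going the other way at 5.62 and 23.9 RPKM, while Rgs5, Kcnj8, Abcc9, Myh11 and Des were below 1 RPKM in both. The part of these cell types in the members' values was not tested.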

How the data were processed

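RNA of passage 10 cultures was made into 1 Illumina library per tissue, per the labels' protocols. Per the file headers, the values the authors deposited are RPKM. How reads were aligned, counted and assigned to strands is not given in the sources used here. The submitters' processing notes name the build mm8, but 45149 of 49585 rows (91.1%) match a GENCODE M21 gene in chromosome, start and end (GRCm38), so coordinates are read on GRCm38. Because RPKM divides whole reads by a fixed gene length and library size, reads were recovered from the exon lengths of those models: of 14255 genes above 0 in both libraries, 12292 (86.2%) were whole in both within 0.02 reads. Of the members, 5 had such a model, Id2 a transcript of the same span, and Id4 and Bambi the model's exons within the row's span, and all 8 were whole. No count model was fitted.

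Ratio intervals are exact conditional (Clopper-Pearson) and level intervals exact Poisson, at 95%. Log2 ratios have 1 RPKM added to both values. Alternatives were other pseudocounts, floors, fold thresholds and scalings. No p-value was computed. The members and all lists were chosen with earlier results of these data known. Named were all members, up to 4 genes of each pathway list with the largest log2 ratio at or above 5 RPKM, and the core genes Bmpr2, Bmpr1a, Smad1, Smad5, Smad4, Tcf3, Tcf4 and Tcf12. Nes, A330033J07Rik, Acvr1, Acvr2a, Sox9, Hand2 and the marker genes are outside this rule, and those printed were picked with values in view. The values of 1 gene that the rule names are not reported here. All 161 listed genes and members were found.

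Intervals came from scipy 1.17.1 and figures from matplotlib 3.10.9, under Python 3.11.15 with pandas 2.3.3 and numpy 2.4.6. The code was checked on simulated data of 45149 genes with Poisson counting error only and no spread between cultures. Both read totals were recovered, and 200 of 200 genes changed 4-fold were counted in the right direction. Of 5486 unchanged genes 0 were counted, and 95.3% of 1000 intervals covered the simulated fold. With no spread between cultures in it, the simulation cannot tell how often the 2-fold rule miscounts genes in the real libraries.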

Additional observations from a re-analysis of the deposited data

How the results depend on the processing

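The log2 ratios of the 8 members were recomputed under 7 other settings, and 0 of 56 values changed sign, although summing rows of a symbol could change nothing because no symbol has a second row. Over pseudocounts of 0.1 and 5 RPKM and 4 scalings, that of Smad6 ranged from -3.30 to -1.60, Id1 from -2.09 to -1.28, Smad7 from -1.82 to -1.09, Id3 from -0.59 to -0.44, Id2 from 0.50 to 0.74 and Bambi from 0.04 to 0.21. Id4 ranged from -2.69 to -0.15 and Smad9 from -2.50 to -0.36, with both ends set by the pseudocount. Scaling by the median ratio shifts abundant genes 0.15 log2 units toward heart. The 3 members higher in bone marrow became 0 with a floor of 20 RPKM, since no such member reaches it, and 1 with a 4-fold threshold. The 24 genes of the 10 lists higher in bone marrow became 13 and 11 under the same settings. Over all genes, those higher in heart numbered 883 with a floor of 1 RPKM and 263 with a floor of 20, where those higher in bone marrow numbered 315. Of 200 counts for single lists, 18 moved beyond 1.5 times. Depth limits Id4 and, in heart, Smad9 (74 reads). With 1 library per tissue, the spread between cultures is unknown.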

Other observations

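Genes of the TGF-beta arm, which shares Smad4 and Smad7 with the BMP arm, did not go one way. Of 6 listed response genes, each of which reached 5 RPKM, bone marrow was higher for 2, heart for 1, and 3 were not 2-fold apart. The median log2 ratio was -0.45. Ctgf, which encodes connective tissue growth factor, stood at 849 RPKM in bone marrow against 141 in heart. Tgfbi, which encodes a secreted adhesion protein, stood at 1.18 and 71.0 RPKM, and Pmepa1, a feedback inhibitor gene of the TGF-beta arm, at 89.2 and 58.8. The BMP feedback gene Smad6 and the TGF-beta feedback gene Pmepa1 had log2 ratios of -2.70 and -0.59. Neither stands for its arm: Smad7, of both arms, had -1.61, the feedback gene Bambi 0.12 and Ctgf -2.58.

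Of 14 tissue-restricted basic helix-loop-helix factor genes, whose proteins pair with E proteins, 11 were below 1 RPKM in both libraries. The 3 others did not go one way: Twist1 and Scx reached 5 RPKM and were higher in bone marrow, and Hand2, below that floor, was higher in heart. Twist1, a mesenchymal factor, stood at 38.6 RPKM in bone marrow against 16.3 in heart. Scx, which encodes the tendon factor scleraxis, stood at 23.7 and 0.529 RPKM. Hand2, a heart and limb factor, stood at 0.00788 RPKM from 1 read in bone marrow against 2.85 RPKM from 434 reads in heart, a ratio of 361 with a counting interval of 64.5 to 14301.5.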
